A study of Yarrowia lipolytica with 12 samples.

Results

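RNA-Seq libraries of *Yarrowia lipolytica* mutants in the Rep1-Ngs1 route of *N*-acetylglucosamine (GlcNAc) regulation were set against each other, 6 of the 12 libraries of the series. They form 2 sets that cut across the strain labels: set A holds Yl*rep1*Δ-1, Yl*ngs1*Δ-2 and Yl*ngs1*Δ-3, and set B holds Yl*rep1*Δ-2, Yl*rep1*Δ-3 and Yl*ngs1*Δ-1, where the last digit is the replicate number. The sets were chosen by the resemblance of these same libraries in their counts over all genes, so every difference between them is given as a description, without a test. Values of set A are listed in the order Yl*rep1*Δ-1, Yl*ngs1*Δ-2, Yl*ngs1*Δ-3, and those of set B in the order Yl*rep1*Δ-2, Yl*rep1*Δ-3, Yl*ngs1*Δ-1.

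Yl*rep1*Δ and Yl*ngs1*Δ were made in the strain PO1a, an auxotroph for leucine and uracil, and lack the gene for the Ndt80 family transcription factor YlRep1 or for the GlcNAc sensor and *N*-acetyltransferase YlNgs1. All 6 mutant libraries came from cells with the plasmid pYL27-4NAG, a *CEN* plasmid on which the Yl*ACT1* promoter drives the GlcNAc transporter gene Yl*NGT1* and the catabolic genes Yl*NAG1*, Yl*DAC1* and Yl*NAG5*. The mutants need it to grow on GlcNAc. The wild-type cells were PO1a with the same plasmid (called WT/4NAG, 3 libraries) or with the empty vector pYL27 (3 libraries), and all cultures were grown in liquid GlcNAc medium to an OD600 of about 0.8. The labels do not say that replicates are separate cultures, so a p-value here reflects only how far these libraries spread, which may be technical.

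*Y. lipolytica* is a dimorphic yeast that grows as oval cells or as filaments. In *Candida albicans*, Rep1 brings Ngs1 to the promoters of GlcNAc catabolic genes, where Ngs1 acetylates histones. In *Y. lipolytica* GlcNAc holds back filamentation, and the mutants filament in GlcNAc medium. The RNA came from bulk cultures, so a change of a transcript within cells and a change in the proportions of yeast and filamentous cells cannot be told apart.

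The deleted genes were measured first, because they check the labels. Yl*REP1* (YALI0D24860) was still counted in every library labelled Yl*rep1*Δ, at 21.7, 11.3 and 68.8 CPM (library-size-scaled counts, with TMM) in replicates 1, 2 and 3, against 77.2, 81.8 and 90.9 CPM in WT/4NAG. The library labelled Yl*rep1*Δ-3 thus held Yl*REP1* reads at 82.6% of the wild-type mean, and goes against its label. Yl*NGS1* (YALI0E20185) was at 0.0517 CPM, a single read, in the library labelled Yl*ngs1*Δ-1, and at 16.6 and 34.5 CPM in replicates 2 and 3 of that label, against 71.5, 73.4 and 74.4 CPM in WT/4NAG. The last of these stood at 47.1% of the wild-type mean. Neither gene alone sorted the sets: Yl*REP1* was low in 1 library of each set, and for both genes the sets overlapped. The gene deleted by label stood at 26.1%, 22.7% and 47.1% of the wild-type mean in the libraries of set A. In set B it stood at 13.5%, 82.6% and 0.0708%. Apart from Yl*rep1*Δ-3, set B was thus lower than set A. Directions below that rest on Yl*rep1*Δ-3 or Yl*ngs1*Δ-3 are those of the library so labelled.

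The resemblance across strains was close. Yl*rep1*Δ-2 and Yl*ngs1*Δ-1 differed at least 2-fold at 31 of 6109 genes that passed the filter on low counts, on the log2(CPM + 1) scale used throughout. Within set A, 16 genes separated Yl*rep1*Δ-1 from Yl*ngs1*Δ-2, 29 separated Yl*rep1*Δ-1 from Yl*ngs1*Δ-3 and 55 separated Yl*ngs1*Δ-2 from Yl*ngs1*Δ-3. Pairs of wild-type libraries with the same plasmid differed at 2 to 14 genes. Across the sets, 2 libraries of the same strain label differed at 436 to 842 genes, and 2 of different labels at 396 to 687 genes.

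Yl*rep1*Δ-3 stood apart within set B. It differed at least 2-fold at 382 genes from Yl*rep1*Δ-2 and at 635 genes from Yl*ngs1*Δ-1, but at 203 to 263 genes from the wild-type libraries, 4NAG and vector included. The other 5 mutant libraries differed from wild-type libraries at 392 to 993 genes. Set A was 3 libraries alike, whereas set B was 2 libraries alike with another that lay closer to wild type than to either of them. Set B is therefore not a single state, and results are given with and without Yl*rep1*Δ-3 where it matters.

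**Figure D1:**
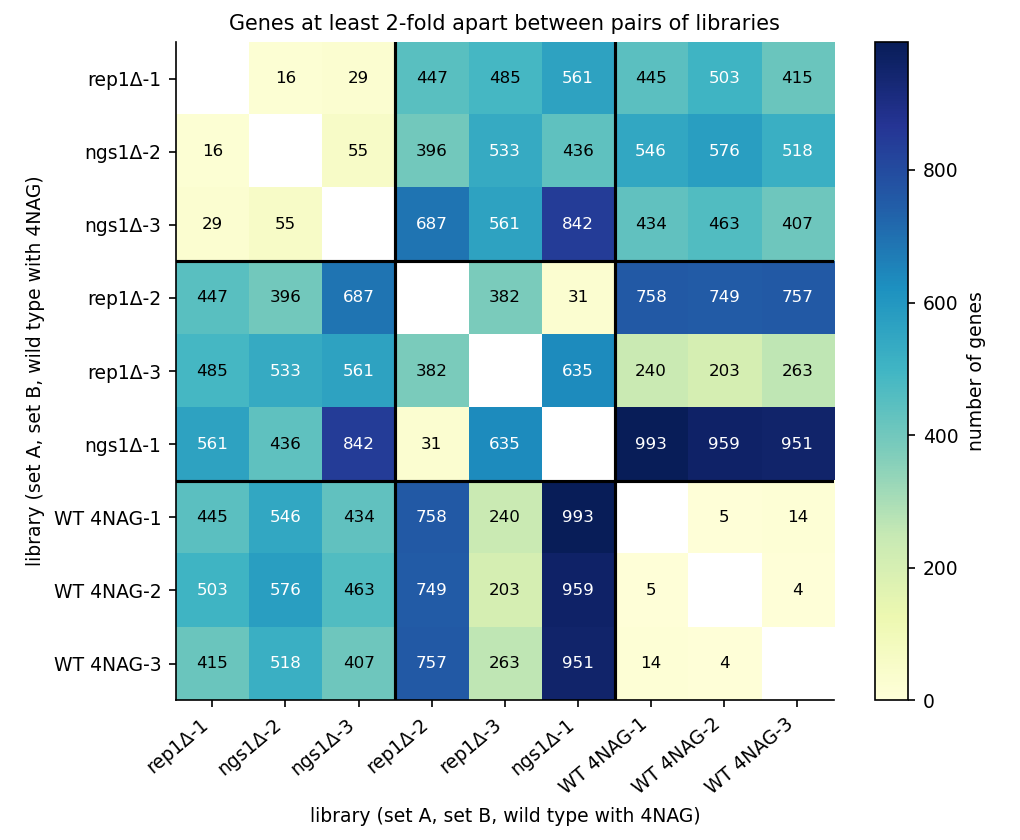
Number of genes at least 2-fold apart, on the log2(CPM + 1) scale, for each pair of the 6 mutant and 3 wild-type 4NAG libraries (rows and columns: set A, set B, wild type; darker is more genes). Yl*rep1*Δ-2 and Yl*ngs1*Δ-1 were 31 genes apart, set A libraries 16 to 55, and Yl*rep1*Δ-3 was 203 to 263 genes from wild type and 382 and 635 from the rest of set B.

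In a principal component analysis of all 12 libraries, the first component (58.1% of the variance) ran from wild type to the mutants and the second (24.0%) separated the sets. On the second component set A lay at -20.2, -19.0 and -27.1, set B at 20.3, 15.5 and 18.9, and the 6 wild-type libraries between -1.10 and 3.93. On the first component set A lay at 16.9, 23.9 and 12.1, set B at 31.0, -2.99 and 41.4, and wild type between -22.1 and -18.3. Wild type was thus between the sets on the axis that parts them, and Yl*rep1*Δ-3 was the mutant library nearest to wild type on the other. On the first component, mutant libraries lay further from wild type the fewer reads they held of the gene deleted by label, as a share of wild type. What underlies this order was not tested.

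**Figure D2:**
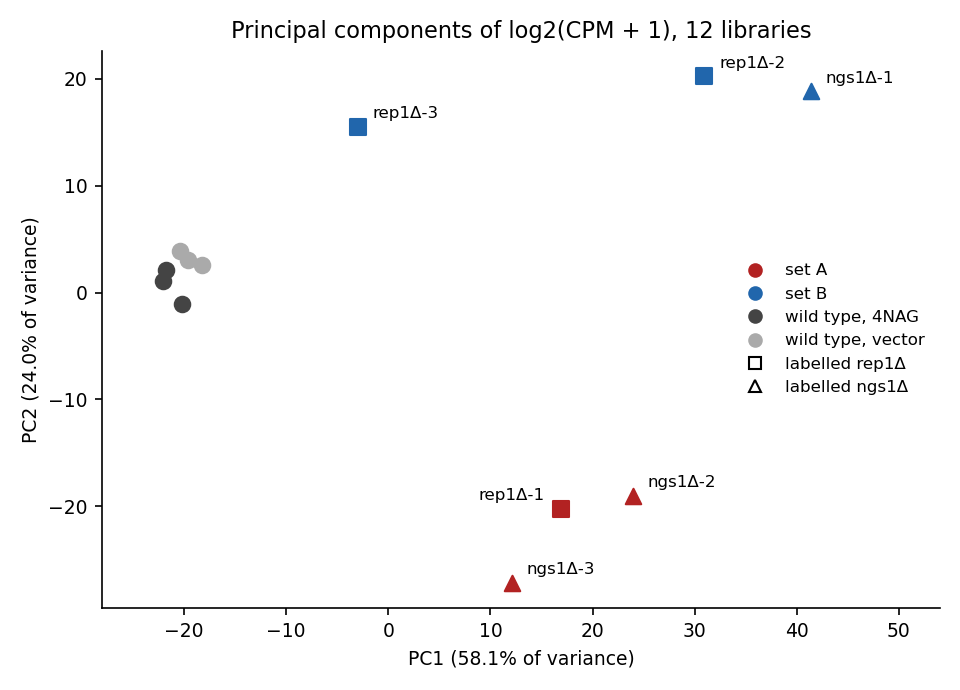
First against second principal component of log2(CPM + 1) over 12 libraries (axes: component scores; red, set A; blue, set B; dark gray, wild type with 4NAG; light gray, wild type with vector; triangles, label Yl*ngs1*Δ; squares, label Yl*rep1*Δ). Set A lies at -27.1 to -19.0 and set B at 15.5 to 20.3 on the second component, with wild type between them.

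Of the 6109 genes, 2461 (40.3%) had all 3 libraries of a set above all 3 of the other, 1241 (20.3%) with set A higher and 1220 (20%) with set B higher. These counts follow from the way the sets were drawn. The same 6 libraries split by strain label, Yl*ngs1*Δ against Yl*rep1*Δ, gave 347 such genes (5.68%), 189 (3.09%) higher and 158 (2.59%) lower in Yl*ngs1*Δ, and 9 (0.147%) at least 2-fold apart. The larger differences were one-sided: 252 genes (4.13%) were at least 2-fold higher in set A without overlap, and 40 (0.655%) were at least 2-fold higher in set B, 292 (4.78%) in all. At 4-fold or more there were 40 genes higher in set A and 0 higher in set B.

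The one-sidedness depended on the scaling and on a single library. TMM factors were 0.939, 0.951 and 0.916 in set A, 1.11, 1.03 and 1.09 in set B and 0.986 to 1.02 in wild type. With total counts in place of TMM the median difference of all genes, set A minus set B, was -0.19 (log2) against -0.01, and the 2-fold genes split into 175 higher in set A and 121 higher in set B. Genes without overlap then split into 774 and 2030. Leaving out Yl*rep1*Δ-3, 312 genes were at least 2-fold higher in set A and 151 in set B, and 67.0% of all genes did not overlap, 33.6% with set A higher and 33.4% with set B higher. Counts of list members without Yl*rep1*Δ-3 stand against these larger shares. The 2-fold changes below are relative to the TMM scale.

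Most genes carry no description in the sources used here. Of the 40 genes at least 4-fold higher in set A 4 had one, a share near that of all genes (594 of 6109). The largest difference was at YALI0E31031 (coding length 1113 nt), with 880, 562 and 1094 CPM in set A, 6.32, 11.0 and 6.99 CPM in set B and 206, 233 and 303 CPM in WT/4NAG. Set A was above wild type and set B far below it, a log2 difference of 6.52 between the sets. YALI0E35046 (1932 nt) was far more abundant, with 8183, 6767 and 9726 CPM in set A, 418, 356 and 560 CPM in set B and 3436, 3434 and 3968 CPM in WT/4NAG, again with wild type in the gap. In the other direction, YALI0F21659 had 8.16, 9.98 and 5.97 CPM in set A, 26.9, 23.0 and 20.7 CPM in set B and 10.1, 13.2 and 9.55 CPM in WT/4NAG. YALI0D09647 had 20.6, 14.9 and 15.6 CPM in set A and 50.6, 31.3 and 44.7 CPM in set B, and wild type with 4NAG (18.7, 27.1 and 19.1 CPM) overlapped set A. These 4 genes showed no overlap between the sets.

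Descriptions were available for 594 of the 6109 genes. The study chose them because they differed between mutants and wild type in these samples, so they do not stand for the genome. Among them 97 (16.3%) were higher in set A without overlap, 42 (7.07%) were higher in set B and 455 overlapped. At least 2-fold, 42 were higher in set A and 8 in set B. The described genes are grouped by function in what follows, so these shares apply to the list counts beside those of all genes. Names followed by "-like" are matches to another species, mostly *Saccharomyces cerevisiae*.

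Reductases of aldehydes and sugars held several of the larger described differences. Of 9 aldo-keto, aldehyde and short-chain reductase genes, 5 were higher in set A without overlap (4 of them at least 2-fold) and none in set B. Of all genes 20.3% and 20% were higher in each. The median log2 difference was 0.82 against -0.01 over all genes. Without Yl*rep1*Δ-3 the counts were 6 and 1, with a median of 0.98. YALI0A19910, similar to a xylose and arabinose reductase, had 129, 96.1 and 186 CPM in set A, 21.2, 35.2 and 19.0 CPM in set B and 201, 218 and 252 CPM in WT/4NAG. Yl*ARI1* (YALI0D07062), an NADPH-dependent aldehyde reductase, had 103, 108 and 137 CPM in set A, 22.9, 21.7 and 32.1 CPM in set B and 103, 97.7 and 110 CPM in WT/4NAG. For both genes set B was the set that departed most from wild type. The reverse held for a *GCY1*-like glycerol dehydrogenase gene (YALI0B21780), with 138, 128 and 141 CPM in set A, 39.3, 41.6 and 39.5 CPM in set B and 43.6, 37.6 and 40.2 CPM in WT/4NAG. A second *GCY1*-like gene, YALI0B07117, followed it at a smaller distance (35.3, 39.8 and 34.7 CPM in set A, 21.8, 20.0391 and 18.9 CPM in set B). Yl*NRE1* (YALI0D01980), a short-chain dehydrogenase, had 275, 236 and 355 CPM in set A and 93.1, 192 and 75.9 CPM in set B, and 392 to 398 CPM in wild type with 4NAG.

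The gene with the largest described difference, YALI0E12507, is related to pirin. It had 23.4, 17.0 and 28.4 CPM in set A, 1.78, 2.98 and 1.40 CPM in set B, and 40.1, 42.3 and 42.6 CPM in WT/4NAG, a log2 difference of 2.98. The *HSP31*-like gene YALI0F00682, whose yeast counterpart detoxifies methylglyoxal, had 1834, 1779 and 2568 CPM in set A, 793, 904 and 797 CPM in set B and 2648, 3194 and 3326 CPM in WT/4NAG. In both genes all mutant libraries lay below wild type with 4NAG, and set B lay lowest. Wild type with the vector had 22.4, 24.9 and 24.6 CPM of YALI0E12507 and 2027, 2066 and 1807 CPM of YALI0F00682, and overlapped set A.

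Some autophagy genes were higher in set A. Of 11 autophagy and vacuole genes, 5 were higher in set A without overlap, none was higher in set B and 6 overlapped, against 20.3% and 20% of all genes higher in each, with a median log2 difference of 0.38. With total counts the split was 2 and 1, and without Yl*rep1*Δ-3 it was 5 and 2 with a median of -0.02. The *ATG15*-like gene YALI0F06358, for a lipase that breaks down membranes in the vacuole, had 159, 169 and 191 CPM in set A, 49.3, 62.2 and 59.5 CPM in set B and 27.7, 36.1 and 33.0 CPM in WT/4NAG. The *ATG13*-like gene YALI0F03432, a regulator of the Atg1 kinase, had 170, 206 and 219 CPM in set A and 77.6, 79.3 and 89.7 CPM in set B, where wild type with 4NAG (79.7, 83.2 and 86.7 CPM) overlapped set B. An *ATG9*-like gene (YALI0F08349) had 62.2, 81.1 and 69.9 CPM in set A and 51.7, 44.2 and 60.6 CPM in set B, so the sets parted by little.

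A group of 3 genes of sulfur assimilation was also higher in set A, among 9 sulfur and methionine genes with a median log2 difference of only 0.08 (-0.10 with total counts). None was higher in set B and 6 overlapped, against 20.3% and 20% of all genes higher in each. Without Yl*rep1*Δ-3 the counts were 5 and 1, with a median of 0.43. The sulfite pump gene Yl*SSU1* (YALI0E24167) leaned to set B with overlap, at a log2 difference of -0.80. The *MET16*-like gene YALI0B08140, for the reductase that makes sulfite, had 957, 922 and 912 CPM in set A, 404, 265 and 444 CPM in set B and 236, 220 and 248 CPM in WT/4NAG. The *MET30*-like gene YALI0B09977, whose yeast product is an F-box subunit of a ubiquitin ligase that restrains sulfur genes, had 237, 274 and 266 CPM in set A, 97.6, 63.8 and 110 CPM in set B and 57.1, 60.3 and 62.1 CPM in WT/4NAG. YALI0F03157, a zinc finger gene with some similarity to *MET32*, had 122, 124 and 125 CPM in set A, 42.9, 26.6 and 57.9 CPM in set B and 19.0, 22.7 and 23.0 CPM in WT/4NAG. All 3 had the same order, set A above set B above wild type with 4NAG, and in set B Yl*rep1*Δ-3 was the lowest library.

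Some spindle and kinetochore genes were also higher in set A. Of 6 spindle, kinetochore and septin genes, 4 were higher in set A without overlap and none in set B, against 20.3% and 20% of all genes. Of the 4, 3 were at least 2-fold higher (1 with total counts). Without Yl*rep1*Δ-3, the lowest mutant library for 5 of the 6, the counts were 4 and 1. At least 2-fold there were then 2, and the list's median log2 difference was 0.425 against 0.779 with it. The *SPC34*-like gene YALI0F15895, a subunit of the Dam1 kinetochore complex in *S. cerevisiae*, had 64.7, 70.1 and 64.9 CPM in set A, 21.4, 15.8 and 24.8 CPM in set B and 22.2, 23.7 and 25.4 CPM in WT/4NAG. Set B overlapped wild type and set A was well above both. The *SPC110*-like gene YALI0E26521, of the inner spindle pole body, had 18.4, 19.8 and 21.4 CPM in set A and 8.84, 7.38 and 9.16 CPM in set B. A gene similar to *sad1* of *Schizosaccharomyces pombe* (YALI0E22825) had 24.4, 25.8 and 27.2 CPM in set A and 17.2, 7.01 and 14.5 CPM in set B.

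In vitamin synthesis 2 of 4 genes were higher in set A and none in set B, against 20.3% and 20% of all genes (3 and 0 without Yl*rep1*Δ-3). The other 2 overlapped and leaned to set B, with log2 differences of -0.54 for Yl*BIO2* (YALI0D15400) and -0.17 for the pyridoxine gene YALI0E20603. The *RIB1*-like gene YALI0E02288, for the first enzyme of riboflavin synthesis, had 204, 183 and 208 CPM in set A, 71.7, 46.7 and 81.5 CPM in set B and 60.8, 60.6 and 64.1 CPM in WT/4NAG. The *THI20*-like gene YALI0E04224, of thiamine synthesis, had 21.2, 20.3 and 23.8 CPM in set A, 7.95, 4.84 and 8.59 CPM in set B and 8.49, 6.98 and 9.71 CPM in WT/4NAG. For both, set B was near wild type and set A was higher. The *DUG2*-like gene YALI0F06336, of glutathione breakdown, had 143, 171 and 129 CPM in set A, 64.7, 21.5 and 75.0 CPM in set B and 48.2, 45.6 and 54.2 CPM in WT/4NAG, and here Yl*rep1*Δ-3 was below wild type.

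Fewer described genes were higher in set B. The *CSR1*-like gene YALI0C05511, for a phosphatidylinositol transfer protein, had 67.2, 69.5 and 62.5 CPM in set A, 180, 140 and 188 CPM in set B and 52.1, 50.7 and 46.9 CPM in WT/4NAG. Here Yl*rep1*Δ-3 lay with the rest of its set. The *CAT8*-like gene YALI0C19151, whose yeast counterpart activates genes for growth on nonfermentable carbon, had 39.6, 41.1 and 34.3 CPM in set A, 108, 54.9 and 114 CPM in set B and 27.1, 28.1 and 31.6 CPM in WT/4NAG. The *DIP5*-like dicarboxylic amino acid permease gene YALI0C00451 had 285, 376 and 245 CPM in set A, 694, 442 and 841 CPM in set B and 169, 162 and 162 CPM in WT/4NAG. In these 2 genes Yl*rep1*Δ-3 was the lowest of set B and was nearer to set A than to its own set. YALI0E28259, a short gene of 261 nt, was lower in all mutant libraries than in wild type (779, 1009 and 880 CPM with 4NAG), with 86.3, 76.2 and 120 CPM in set A and 278, 295 and 211 CPM in set B.

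**Figure D3:**
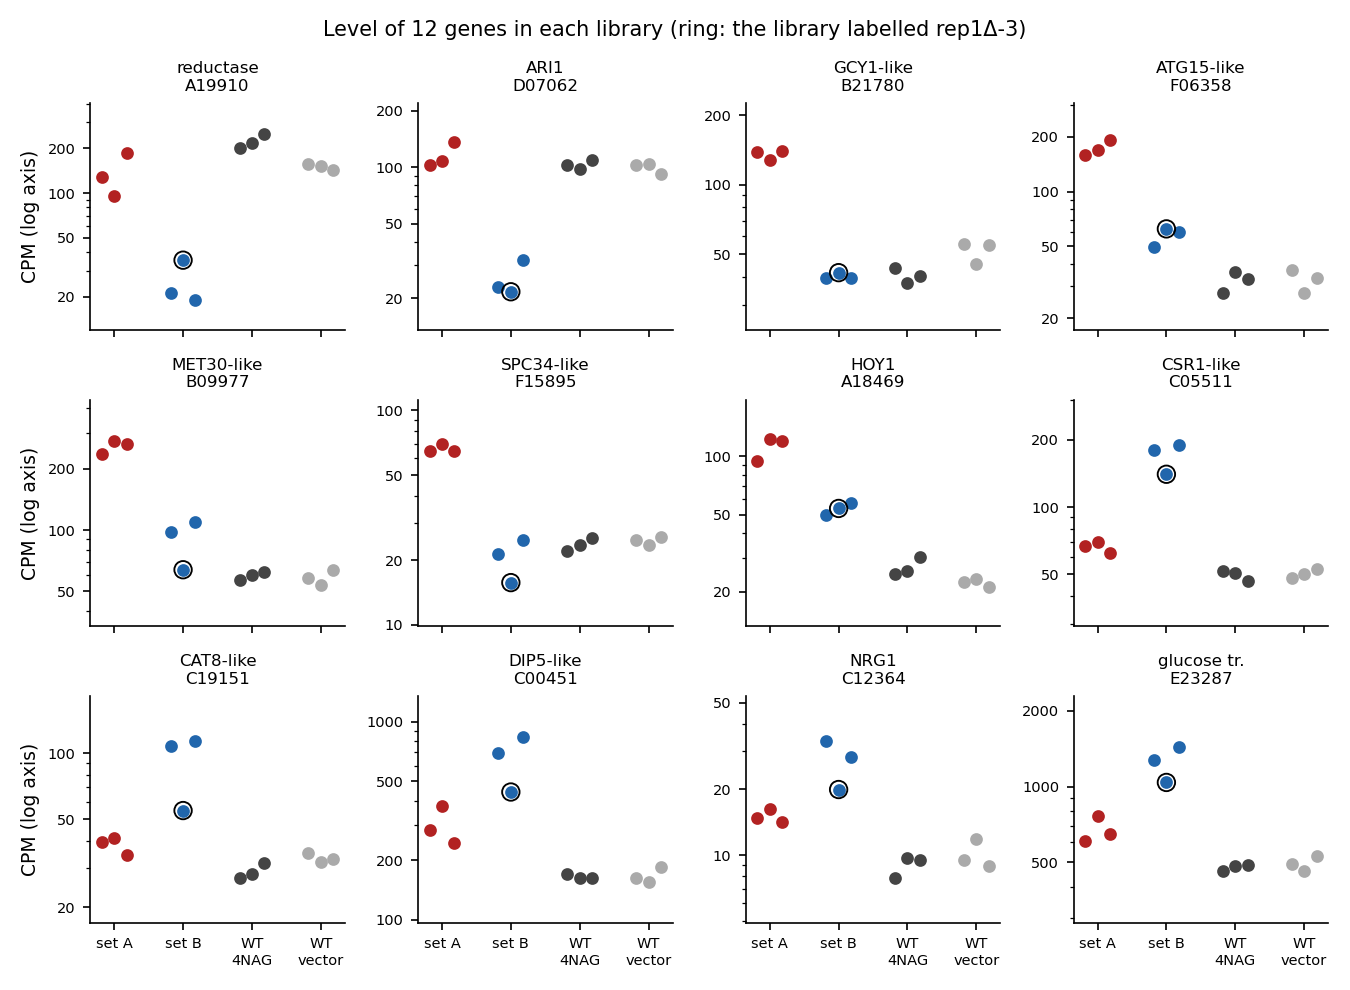
CPM on log axes of 12 genes in each library (points, 1 per library; red, set A; blue, set B; dark gray, wild type with 4NAG; light gray, wild type with vector; ring, Yl*rep1*Δ-3). The first 7 genes are higher in set A and the last 5 in set B without overlap; for the *CAT8*-like gene Yl*rep1*Δ-3 (54.9 CPM) lies below the other set B libraries (108 and 114 CPM).

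More nutrient transporter genes were higher in set B when Yl*rep1*Δ-3 was left out, as were more of all genes (33.4%, against 20% with it). Of 4 sugar and polyol transporter genes, 1 was higher in set B without overlap, against 20% of all genes and 7.07% of described genes. It was YALI0E23287, a high-affinity glucose transporter gene, with 607, 766 and 651 CPM in set A, 1282, 1039 and 1431 CPM in set B and 463, 483 and 489 CPM in WT/4NAG. Without Yl*rep1*Δ-3 there were 3, and the median log2 difference of the list was -1.11 against -0.61. The *SNF3*-like gene YALI0C06424 had 192, 199 and 183 CPM in set A and 467, 132 and 530 CPM in set B, so that Yl*rep1*Δ-3 alone made the sets overlap. Of 18 amino acid and oligopeptide transporter genes that passed the filter (19 listed), 4 were higher in set A and 2 in set B; without Yl*rep1*Δ-3 the counts were 5 and 10. The largest of these was Yl*GAP1* (YALI0B19492), a general amino acid permease gene, with 43.4, 49.8 and 36.1 CPM in set A, 193, 30.7 and 218 CPM in set B and 5.44, 8.67 and 8.79 CPM in WT/4NAG. Genes of the same description differed. Another gene named Yl*GAP1*, YALI0C17237, overlapped, with 88.6, 67.0 and 99.5 CPM in set A, 123, 321 and 71.4 CPM in set B and 343, 363 and 330 CPM in WT/4NAG. A second *DIP5*-like gene, YALI0B20064, was higher in set A without overlap (47.7, 64.0 and 41.2 CPM, against 41.0, 9.24 and 40.8 CPM in set B).

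Of 8 genes of gluconeogenesis, glyoxylate and acetate use, 2 were higher in set B and none in set A. This is near the 20% of all genes higher in set B, and above the 7.07% of described genes. Without Yl*rep1*Δ-3, 5 of the 8 were higher in set B, against 33.4% of all genes. *GPR1* (YALI0C23617), a glyoxylate pathway regulator, had 562, 659 and 415 CPM in set A, 1087, 379 and 1240 CPM in set B and 171, 178 and 173 CPM in WT/4NAG. Yl*JEN2* (YALI0C15488), a dicarboxylic acid transporter gene, had 295, 406 and 232 CPM in set A, 656, 163 and 821 CPM in set B and 32.2, 28.8 and 49.8 CPM in WT/4NAG. In both, Yl*rep1*Δ-2 and Yl*ngs1*Δ-1 were the highest libraries, set A was intermediate and Yl*rep1*Δ-3 was the mutant library nearest to wild type.

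Transcription factor genes, some of them tied to filamentation, overlapped between the sets about as often as all genes did, and less often than described genes (455 of 594). Of 17 transcription factor genes that the study lists as higher in Yl*rep1*Δ, a list chosen on these samples, 2 were higher in set A and 4 in set B without overlap and 11 overlapped, where 3648 of all 6109 genes overlapped. Without Yl*rep1*Δ-3 the counts were 2 and 10. Yl*rep1*Δ-3 was the lowest mutant library for 10 of them and Yl*ngs1*Δ-1 the highest for 10. Yl*HOY1* (YALI0A18469), a gene needed for the yeast-to-hypha transition, was one of the 2, with 94.6, 122 and 120 CPM in set A, 50.1, 53.9 and 57.4 CPM in set B and 24.7, 25.7 and 30.2 CPM in WT/4NAG. The other was the *XBP1*-like repressor gene YALI0F16511, with 114, 140 and 128 CPM in set A and 64.3, 36.6 and 78.4 CPM in set B. Yl*NRG1* (YALI0C12364), whose *C. albicans* counterpart represses filamentation, was higher in set B, with 14.7, 16.3 and 14.2 CPM in set A, 33.5, 19.9771 and 28.2 CPM in set B and 7.82, 9.65 and 9.44 CPM in WT/4NAG. *YAS1* (YALI0C02387), a regulator of alkane-inducible cytochrome P450 genes, had 4.48, 3.65 and 2.09 CPM in set A and 10.5, 5.09 and 10.2 CPM in set B.

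*MHY1* (YALI0B21582), a zinc finger gene required for filamentation, overlapped between the sets, with 167, 224 and 147 CPM in set A, 414, 136 and 522 CPM in set B and 52.1, 58.1 and 54.2 CPM in WT/4NAG. Yl*WOR4* (YALI0F19822), another zinc finger regulator, also overlapped, with 39.9681, 66.7 and 47.4 CPM in set A, 38.2, 8.62 and 63.6 CPM in set B and 0.880, 1.4995 and 1.66 CPM in WT/4NAG. Both were lowest in Yl*rep1*Δ-3 among the mutant libraries. Against 20.3% of all genes and 16.3% of described genes, 3 of 9 further transcription factor genes from the study's list for Yl*ngs1*Δ were higher in set A. None was higher in set B (3 and 1 without Yl*rep1*Δ-3). Besides YALI0F03157 the 3 higher in set A were the *ULS1*-like gene YALI0F30261, a Swi2/Snf2-type ATPase gene (135, 161 and 153 CPM in set A, 64.2, 37.5 and 79.6 CPM in set B), and Yl*AAF1* (YALI0E23925), at 140, 166 and 149 CPM in set A and 111, 62.4 and 127 CPM in set B.

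Few of the cell wall genes on the study's list for Yl*rep1*Δ parted the sets. Of 15 cell wall protein genes listed by the study as higher in Yl*rep1*Δ, 1 was higher in set A without overlap and none in set B (0 and 1 with total counts), and Yl*rep1*Δ-3 was the lowest mutant library for 14. The *FLO11*-like adhesin gene YALI0E18722 had 403, 647 and 367 CPM in set A, 562, 148 and 917 CPM in set B and 8.70, 9.89 and 7.56 CPM in WT/4NAG. All mutant libraries were far above wild type, and set B held both the lowest and the highest. A second adhesin-like gene, YALI0C23452, had 169, 225 and 127 CPM in set A, 289, 42.1 and 473 CPM in set B and 10.4, 9.00 and 10.2 CPM in WT/4NAG. Without Yl*rep1*Δ-3, 1 of the 15 was higher in set A and 9 in set B, against 33.6% and 33.4% of all genes. Of 12 cell wall genes in its list for Yl*ngs1*Δ that passed the filter, 3 were higher in set A, near the 20.3% of all genes. None was higher in set B (3 and 4 without Yl*rep1*Δ-3). None of the 9 cell wall genes that the study lists as lower in the mutant parted the sets, and 3 were higher in set A without Yl*rep1*Δ-3.

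Formate dehydrogenase genes were ordered in the opposite way to the adhesins. Among 9 formate dehydrogenase genes, Yl*rep1*Δ-3 was the highest mutant library for 7 and Yl*ngs1*Δ-1 the lowest for 7, while only YALI0E14256 had sets without overlap (1.76, 1.26 and 1.48 CPM in set A, 4.58, 15.3 and 1.81 CPM in set B). Yl*GIG1* (YALI0F04466), a GlcNAc-induced gene in *C. albicans*, had 83.5, 60.0 and 96.6 CPM in set A, 51.4, 228 and 9.42 CPM in set B and 273, 257 and 256 CPM in WT/4NAG. It was close to the wild-type level in Yl*rep1*Δ-3 and lowest in Yl*ngs1*Δ-1, with set A between. The GlcNAc kinase gene Yl*NAG5* (YALI0E20207), on the same list of 3 GlcNAc genes, went the other way, with 1186, 1424 and 1236 CPM in set A, 1534, 1341 and 1631 CPM in set B and 856, 873 and 847 CPM in WT/4NAG. The third, Yl*DAC1* (YALI0E20163), had 641, 649 and 680 CPM in set A, 803, 1416 and 580 CPM in set B and 1277, 1429 and 1285 CPM in WT/4NAG. Both are also carried on pYL27-4NAG, so their counts can include plasmid transcripts and do not show the chromosomal gene alone. The *CTT1*-like catalase gene YALI0E34265 was lower in all mutant libraries than in wild type with 4NAG, with 14.003, 6.99 and 31.8 CPM in set A, 55.6, 211 and 9.47 CPM in set B and 339, 400 and 319 CPM in WT/4NAG. The lists of antioxidant enzymes (7 genes), metal and heme genes (13), lipases (8), alkane P450 genes with *YAS1* (5), yapsins and secreted proteases (9) and stress chaperones (3) had 0 to 2 members higher in either set. Of all genes 20.3% and 20% were higher in set A and set B. Without Yl*rep1*Δ-3 the counts for set A and set B were, in the same order, 1 and 0, 3 and 2, 1 and 2, 0 and 3, 2 and 2, and 2 and 0. The shares of all genes were then 33.6% and 33.4%.

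Wild-type libraries lay between the sets for most of the genes that part them. Of the 252 genes at least 2-fold higher in set A, the wild-type mean with 4NAG was between the set means for 194 (77.0%), below both for 36 and above both for 22. For the 40 genes at least 2-fold higher in set B the counts were 29, 8 and 3. Over all 6109 genes 33.7% had wild type between the sets. Genes picked for set means far apart leave a wider gap for wild type to fall in, so these shares are not like for like. For 127 of the 252 all 3 wild-type 4NAG libraries fell in the gap between the lowest library of set A and the highest of set B. The 42 described genes were different, with wild type between the sets for 7 and below both for 28, and the study chose these genes by their distance from wild type.

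On a scale where the mean of set B is 0 and the mean of set A is 1, weighted by each gene's difference over all genes, the wild-type 4NAG libraries lay at 0.572, 0.539 and 0.615 and the vector libraries at 0.525, 0.508 and 0.537. This midway position rested on Yl*rep1*Δ-3. Without it the wild-type 4NAG mean was 0.877, close to set A, against 0.575 with all libraries; without Yl*ngs1*Δ-1 it was 0.395. Wild type was between the set means for 76.4% of the 292 genes at least 2-fold apart, and for 60.0% of such genes without Yl*rep1*Δ-3.

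**Figure D4:**
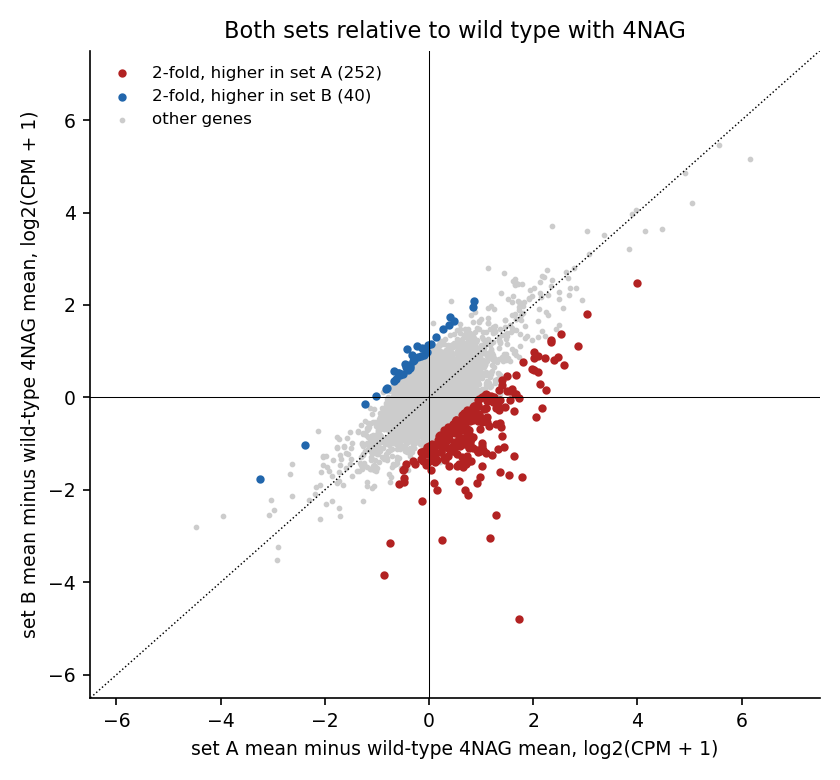
Mean of set A (horizontal) and of set B (vertical) minus the wild-type 4NAG mean, in log2(CPM + 1), for each of 6109 genes (red, 252 genes at least 2-fold higher in set A without overlap; blue, 40 higher in set B; gray, other genes; dotted line, equal differences). Both axes share the wild-type libraries; most red points lie right of 0 and below 0, with wild type between the sets.

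The coding length of the genes moved with the difference between the sets. The median coding length was 978 nt for the 252 genes higher in set A, 1797 nt for the 40 higher in set B and 1224 nt for all genes tested. Across genes, Spearman's rho between the set difference and length was -0.313 (6109 genes, which share the same libraries and are not independent). In the shortest 611 genes 31.3% were higher in set A without overlap and 7.53% in set B, and in the longest 611 genes 5.40% and 34.4%. Relative to wild type with 4NAG, the trend was in set B: rho with length was 0.29, 0.21 and 0.33 in its libraries, against -0.01, 0.04 and 0.06 in set A and -0.14 to 0.22 in the wild-type 4NAG libraries themselves. The part of length in the set difference was not tested. Of 10 length classes of about 611 genes, the shortest held 50 genes at least 2-fold higher in set A and the longest held 5. For genes at least 2-fold higher in set B the counts were 3 and 11.

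**Figure D5:**
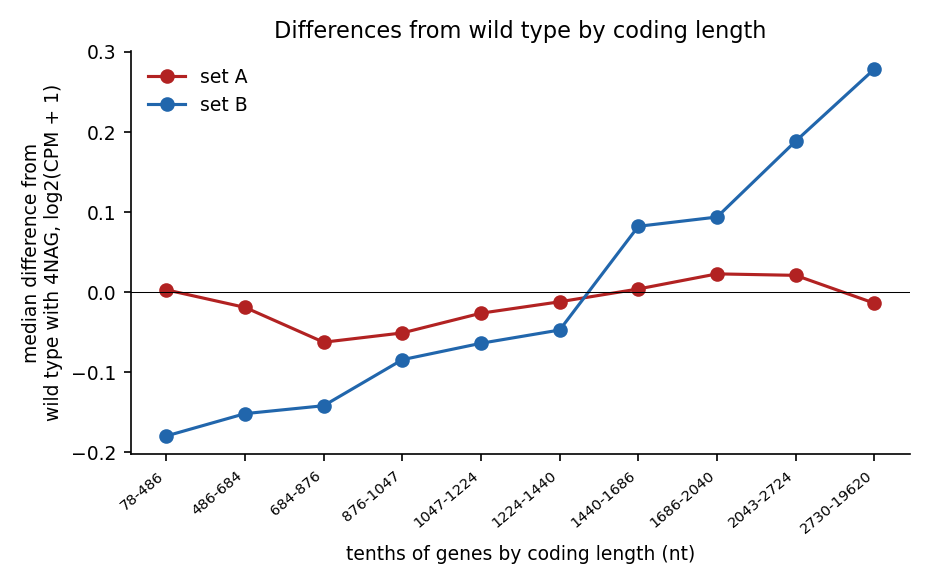
Median difference from the wild-type 4NAG mean, in log2(CPM + 1), in 10 classes of genes ordered by coding length in nt (red, set A; blue, set B; each point about 611 genes). Set B runs from -0.18 in the shortest class to 0.28 in the longest, while set A stays between -0.06 and 0.02.

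The 100 most abundant genes took 31.5%, 31.1% and 32.2% of all counts in set A, 28.0%, 28.1% and 28.6% in set B and 28.8% to 29.4% in wild type, so the libraries of set A were above all others. Library totals lay between 15667204 and 22650213 counts and overlapped between the sets.

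The split by strain label was the one the study made, and a test of it does not use the sets. Between Yl*ngs1*Δ and Yl*rep1*Δ, with 3 libraries each, edgeR's quasi-likelihood test called 0 genes higher and 0 lower of 6016 (2-fold or more, with p adjusted by Benjamini-Hochberg below 0.05). At an unadjusted p under 0.05 and at least 2-fold it gave 15 higher and 13 lower, and DESeq2 called 0 and 0. The deleted genes themselves were not called, with log2 fold changes of 1.08 for Yl*REP1* and -1.72 for Yl*NGS1* (edgeR adjusted p = 0.99974 for each). Libraries under each label spread over both sets, so the 0 calls do not show that the strains are alike. Each set holds libraries of both labels, so a gene that parts the sets cannot also part the strain labels. That none of the 252 and 40 genes did is therefore not a result.

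The 6 wild-type libraries, which the choice of sets did not use, gave a comparison that can be tested. Cells with 4NAG had 11 genes higher (0.182%) and 0 lower than cells with the vector, of 6043 tested with edgeR (26 higher and 4 lower at an unadjusted p, and 11 and 0 with DESeq2). None of the 292 genes that part the sets at least 2-fold was among the 11. At an adjusted p under 0.05 with any fold, 53 of the 252 genes higher in set A (21.0%) rose with 4NAG and 8 (3.17%) fell, against 6.24% and 4.32% of all genes tested. Of the 40 genes higher in set B, 5 rose and 0 fell.

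The genes that rose with 4NAG included several whose level in set B was far below wild type. YALI0E12507 had 40.1, 42.3 and 42.6 CPM with 4NAG and 22.4, 24.9 and 24.6 CPM with the vector (log2 fold change 0.80, edgeR adjusted p = 2.69e-05). YALI0A19910 had 201, 218 and 252 CPM with 4NAG and 157, 151 and 144 CPM with the vector (log2 fold change 0.57, edgeR adjusted p = 0.000126). The *HSP31*-like gene YALI0F00682 had 2648, 3194 and 3326 CPM with 4NAG and 2027, 2066 and 1807 CPM with the vector (log2 fold change 0.64, edgeR adjusted p = 7.32e-05). A gene higher in set B, YALI0E28259, rose as well, with 779, 1009 and 880 CPM with 4NAG and 522, 617 and 494 CPM with the vector (log2 fold change 0.71, edgeR adjusted p = 9.34e-05). By contrast the sulfur, autophagy and spindle genes that were higher in set A did not pass: the log2 fold change was 0.03 for YALI0B09977 (edgeR adjusted p = 0.862), -0.01 for YALI0F06358 (0.967) and -0.06 for YALI0F15895 (0.758).

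The largest change called with 4NAG was at YALI0D24145, similar to a fluoride exporter gene of *S. cerevisiae*, with 1.76, 1.22 and 1.29 CPM with 4NAG and 0.559, 0.308 and 0.147 CPM with the vector (log2 fold change 2.04, edgeR adjusted p = 0.0124). An acid extracellular protease gene, YALI0D10967, had 13.9, 23.3 and 19.6 CPM with 4NAG and 7.26, 5.71 and 4.57 CPM with the vector (log2 fold change 1.70, edgeR adjusted p = 4.89e-05). Neither parted the sets, in which YALI0D10967 had 1.87, 2.45 and 6.95 CPM in set A and 3.24, 8.69 and 1.40 CPM in set B.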

How the data were processed

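RNA-Seq was measured in 12 libraries, 4 groups of 3, with groups and replicate numbers taken from the sample labels. Per library, the authors deposited a count for each gene, in whole reads, and its FPKM. TopHat2 2.1.1, Cufflinks 2.2.1 and the mouse build mm10 stand in the submitters' processing notes; which yeast genome, annotation and counter were used was not given in the sources used here. FPKM as deposited served only to recover the coding length of each gene from its count. Of 6400 genes, 24 are absent from some tables and were set to 0 there. Gene IDs are written as in the paper, and names and descriptions come from its text and gene tables, which describe 605 genes.

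Sets A and B, the gene lists and the rule for named genes were chosen with earlier results of these data known. Levels are CPM, scaled by TMM over 12 libraries after filterByExpr with the 4 groups (6109 genes); differences are of mean log2(CPM + 1). Named genes are the deleted genes, the 14 largest described differences each way among genes without overlap and with a mean of at least 20 CPM in the higher set, members of the study's transcription factor and cell wall lists, up to 4 members of each other list, 2 undescribed genes each way, and the 5 largest calls of 4NAG against vector; the text gives those that carry a result. YALI0B07117 and YALI0F08349 fall outside this rule and were chosen after their values were seen. Tests used edgeR 4.0.16 in R 4.3.3 (quasi-likelihood, TMM, filterByExpr), tested on simulated data, with DESeq2 1.42.0 as an alternative. Libraries held 15667204 to 22650213 counts. Other alternatives were DESeq2 size factors, total counts, filters, pseudocounts of 5 and 0.1 CPM, all 12 libraries in a fit, a replicate block and leaving out each library. Figures were drawn in Python 3.11.15.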

Additional observations from a re-analysis of the deposited data

How the results depend on the processing

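Set A against set B gave 292 genes without overlap and at least 2-fold apart, between 205 and 367 under the other scalings, filters and pseudocounts. Leaving out each mutant library gave 260 to 463 such genes and 43.0% to 67.0% of genes without overlap, against 40.3%, the highest of both without Yl*rep1*Δ-3. With total counts the share was 45.9%. The wild-type 4NAG position was 0.575, and 0.395 to 0.877 when each mutant library was left out. Members of the function lists at least 2-fold apart numbered 20, and 18 to 35 when each was left out. Differences of 37 named genes kept their sign under every alternative run. These genes were picked as at least 2-fold apart without overlap, so leaving out a library could not change the sign. Over the genes and alternatives, 13 differences moved by at least the spread within the sets and 320 did not.

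The 4NAG calls numbered 11, and 8 to 15 when each library was left out, 30 at an unadjusted p and 0 with all 12 libraries in a single fit, in which the wild-type and mutant libraries share a single estimate of spread. YALI0D24145 lost its call without wild-type vector replicate 3 (edgeR adjusted p = 0.0639). The call of YALI0D10967 was lost only in the fit of 12 libraries. Between the strains the calls numbered 0, also when each library was left out, and 28 at an unadjusted p. With the replicate number as a block there were 12 calls for 4NAG and 0 between the strains. The numbers do not pair the samples: deviations from the group means of same-numbered libraries correlated across genes at -0.644, -0.541 and 0.218 between the strains and at 0.097 to 0.125 between the plasmids.

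Counting error is largest for the genes named at a few CPM, such as YALI0D24145. The labels give no batch.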
